A study of Macaca mulatta with 12 samples.

Results

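The genes described here encode the main cannabinoid receptor of the brain (CNR1) and 3 enzymes that make or break down its ligands (DAGLA, MGLL and FAAH). They were chosen by name as rows of the deposited raw count table. The rule itself used no measured level, but earlier results of these data were known when the genes were chosen. CNR1, MGLL and FAAH were described, which makes 3 genes of the 4 named and of 19708 in the table, and DAGLA was not analysed here. RNA was counted in single nuclei from frozen, surgically removed amygdala of rhesus macaques (Macaca mulatta). The 12 labelled libraries form 1 group, with specimen numbers up to 3 in their titles, and the labels give no treatment, strain or age. The comparisons are therefore between cell types and not between conditions.

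CNR1 encodes the CB1 receptor, which couples to inhibitory G proteins, sits mainly on axon terminals and lowers transmitter release. In the classic scheme the postsynaptic cell makes 2-arachidonoylglycerol (2-AG) with diacylglycerol lipase alpha, the product of DAGLA, and 2-AG travels back across the synapse to CB1. Monoacylglycerol lipase, the product of MGLL, breaks down 2-AG, and fatty acid amide hydrolase, the product of FAAH, breaks down anandamide, the other main endocannabinoid. In the rodent amygdala CB1 is known to be dense on terminals of interneurons that make the peptide cholecystokinin (CCK), and endocannabinoids take part in the extinction of fear. A transcript in a nucleus shows which cell makes it, not where its protein sits.

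After 1862 presumed doublets were left out, 24538 of 26400 nuclei were kept, and clusters were named by the cell type whose marker genes they resemble, so "astrocyte" means astrocyte-like. There were 4122 inhibitory and 10604 excitatory neurons, 5984 astrocytes, 435 oligodendrocytes, 74 committed oligodendrocyte precursors, 374 oligodendrocyte precursors, 180 microglia, 163 mural cells and 112 endothelial cells of the vessel wall, 793 ependymal cells and 1697 nuclei left unnamed. Median depth ran from 1109 UMIs (unique molecular identifiers, the tags that count captured transcripts) in microglia to 5635.5 in inhibitory and 8203 in excitatory neurons. Barcodes carried 1 of 3 suffixes, called barcode sets here, which no label ties to an animal or library, and 68 barcodes occurred in more than 1 set. All nuclei were therefore treated as 1 pool, so differences have neither a replicate error nor a test. Levels are UMIs per 1000000 UMIs of a cell type (CPM) with exact 95% Poisson intervals, shares of nuclei have exact Clopper-Pearson intervals, and both cover counting error only. The values in the 3 barcode sets show whether a direction recurs, and they may be technical. "Higher" and "lower" are used of pooled values at least 2-fold apart.

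CNR1 was mainly a gene of inhibitory neurons, the cells that release GABA. It stood at 739 CPM (728 to 749) in inhibitory neurons against 74.0 CPM (72.3 to 75.8) in excitatory neurons, which release glutamate. The 3 barcode sets gave 721, 715 and 783 CPM in inhibitory and 75.2, 72.5 and 74.4 CPM in excitatory neurons, so the classes did not overlap. Inhibitory neurons gave 70.0% of all 26206 CNR1 UMIs from 18.1% of all UMIs. The ratio was 9.98-fold, a log2 fold of 3.32 (3.28 to 3.36). Of the 14872 genes measured in both classes, 8.49% were at least 2-fold higher in inhibitory neurons, and the median log2 fold over all of them was 0.10. Of the 10604 excitatory nuclei 4673 (44.1%) lay in 1 cluster with the most PROX1, sub-clusters E1 and E3 below, whose place of origin is not settled. Without it the log2 fold was 2.98.

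**Figure D1:**
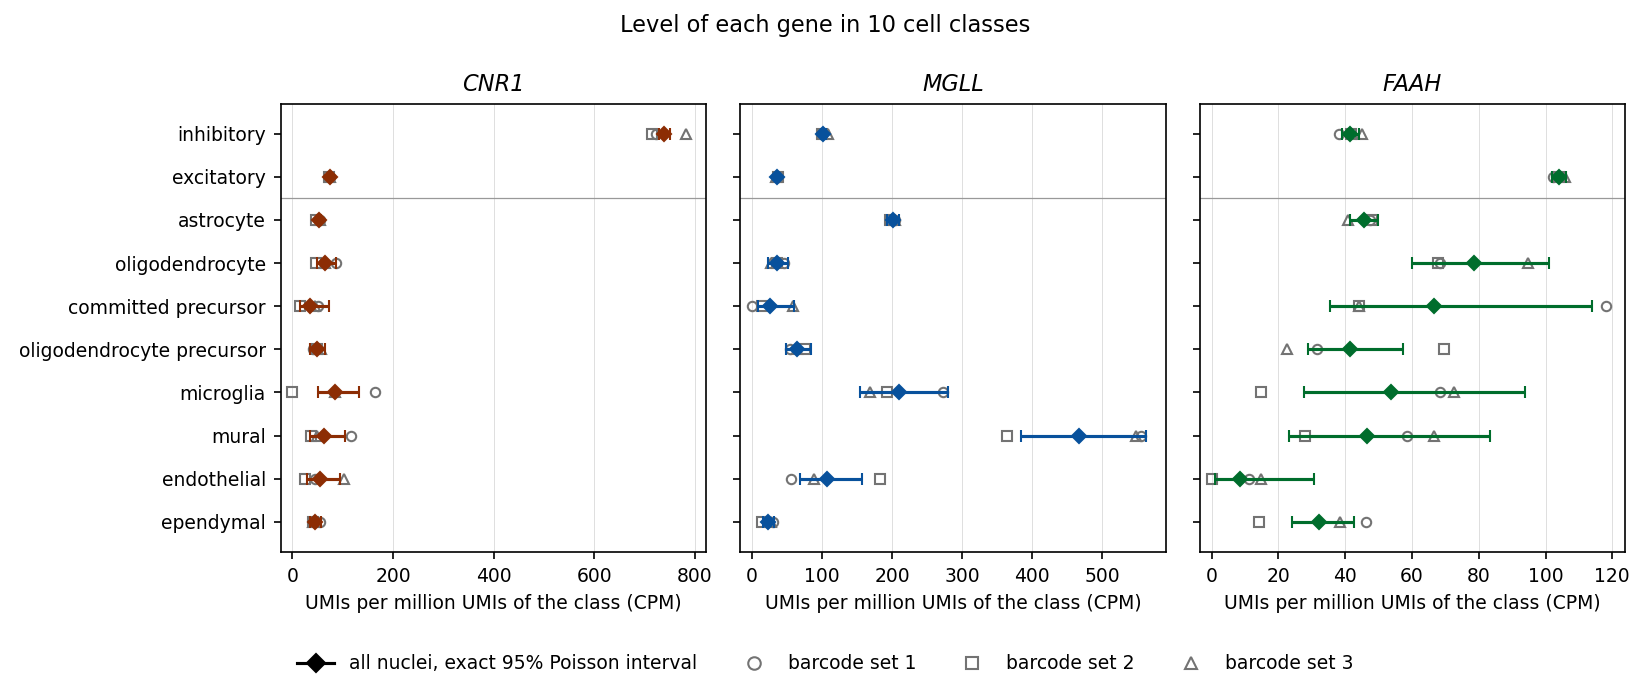
CPM of CNR1, MGLL and FAAH (x axes, each on its own linear scale) in 10 cell classes (y axis). Filled points are all nuclei with exact 95% Poisson intervals and open symbols are the 3 barcode sets. CNR1 stood at 739 CPM in inhibitory neurons and at 85.0 CPM or less elsewhere, MGLL was highest in mural cells at 467 CPM, and FAAH was highest in excitatory neurons at 104 CPM.

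Against the mean of the other 9 classes (58.4 CPM), CNR1 was 12.6-fold higher in inhibitory neurons, where 7.84% of measured genes were at least 2-fold higher. Among glia and vessel cells it ranged from 35.8 CPM (14.4 to 73.9) in committed oligodendrocyte precursors to 85.0 CPM (51.2 to 133) in microglia, and no neighbours in that order had intervals apart. Astrocytes stood at 52.3 CPM (48.1 to 56.9) and oligodendrocytes at 65.4 CPM (48.5 to 86.2). Free RNA from broken cells gives UMIs in nuclei that do not make a transcript. The glial and vascular levels of CNR1 were 4.85 to 11.5% of its level in inhibitory neurons. GAD2, a GABA-synthesis gene that these cells should lack, stood there at 2.40 to 9.93% of its own level in inhibitory neurons, and GAD1 at 5.87 to 26.8%. The part of free RNA in the glial CNR1 counts was not tested.

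A CNR1 UMI was found in 56.5% of inhibitory nuclei (55.0 to 58.0%), against 38.6% of excitatory nuclei (37.7 to 39.5%) and 8.32% of astrocytes (7.63 to 9.05%, median 1732 UMIs). With each nucleus thinned to 1000 UMIs and shallower nuclei left out, which were 3 inhibitory, 0 excitatory and 507 astrocyte nuclei, the shares were 29.4% (28.0 to 30.8%), 6.08% (5.64 to 6.55%) and 5.29% (4.72 to 5.92%). At equal depth, then, the pooled excitatory share lay close to the share seen in astrocytes, but the excitatory sub-clusters differed. E1 and E3, which held 44.1% of excitatory nuclei, stood at 2.94% and 2.91%, with intervals below that of astrocytes. E2, E4, E5, E8 and E9 stood between 8.45% and 12.6%, with intervals above it. E6, E7, E10, E11 and E12, between 1.87% and 7.79%, overlapped astrocytes in interval. For GAD2, which excitatory neurons should lack, the thinned share was 34.0% in inhibitory neurons, 0.547% in excitatory neurons and 2.59% in astrocytes. For GAD1 the thinned share was 28.6% in inhibitory neurons, 2.67% in excitatory neurons and 2.83% in astrocytes, and it reached 5.51% in excitatory sub-cluster E1. The part of free RNA in the excitatory CNR1 counts was not tested.

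Within the inhibitory neurons CNR1 was concentrated in 2 of 12 sub-clusters. Sub-clusters were formed without the genes of the pathway lists, CNR1 included, and each is given with its leading subtype markers. Sub-cluster I9 (VIP, ADARB2; 331 nuclei) stood at 3146 CPM (3071 to 3222), with 3185, 3028 and 3242 CPM in the barcode sets. Sub-cluster I6 (HTR3A, RELN; 398 nuclei) stood at 2394 CPM (2339 to 2450.4), with 2567, 2243 and 2375 CPM. Both lay above every other type in every set. CNR1 was 6.41-fold higher in I9 than the mean of the other 11 inhibitory sub-clusters (490.4 CPM), where 1.93% of the measured genes kept out of the clustering were at least 2-fold higher. In I6 it was 4.29-fold higher than the mean of the others (559 CPM), where 1.74% of such genes were. Together these nuclei, which were 1.35 and 1.62% of all nuclei, gave 25.8 and 27.4% of all CNR1 UMIs.

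An intermediate level was found in 4 further sub-clusters. I10 (NR2F2, PROX1) stood at 947 CPM (885 to 1013), with 1094, 846 and 932 CPM in the sets. I2, led by CRH and CALB2, and I5, led by PENK and PROX1, stood at 561 CPM (527 to 597) and 508 CPM (476 to 541), and neither their intervals nor their set values were apart. I12 (MEIS2, NDNF) stood at 424 CPM (384 to 468). These 4 share high ADARB2, between 8014 and 12934 CPM, and LHX6 of at most 3.20 CPM. In the cortex LHX6 marks interneurons born in the medial and ADARB2 those born in the caudal ganglionic eminence.

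The remaining 6 sub-clusters lay below these in CNR1. I8 (LAMP5, LHX6) and I3 (NDNF, RELN) both stood at 155 CPM (138 to 173). I11 (SOX6, SST) followed at 97.1 CPM (77.2 to 121), I7 (NPY, SST) at 60.7 CPM (52.0 to 70.3) and I4 (NOS1, LAMP5) at 54.0 CPM (44.98 to 64.4). I1 (TAC1, LHX6; 554 nuclei, the largest sub-cluster) was lowest at 37.4 CPM (31.7 to 43.9), with 28.7, 41.2 and 41.8 CPM in the sets, and so lay within the range of glia. The 5 sub-clusters with LHX6 between 181 and 230.3 CPM (I1, I4, I7, I8 and I11) were among these 6. I3 was the exception, with LHX6 at 1.00 CPM, ADARB2 at 10146 CPM and CNR1 at 155 CPM. Across the 12 sub-clusters the log2 levels of CNR1 and ADARB2 correlated at r = 0.83 and those of CNR1 and LHX6 at r = −0.80 (Pearson, a description over 12 points from the same libraries).

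**Figure D2:**
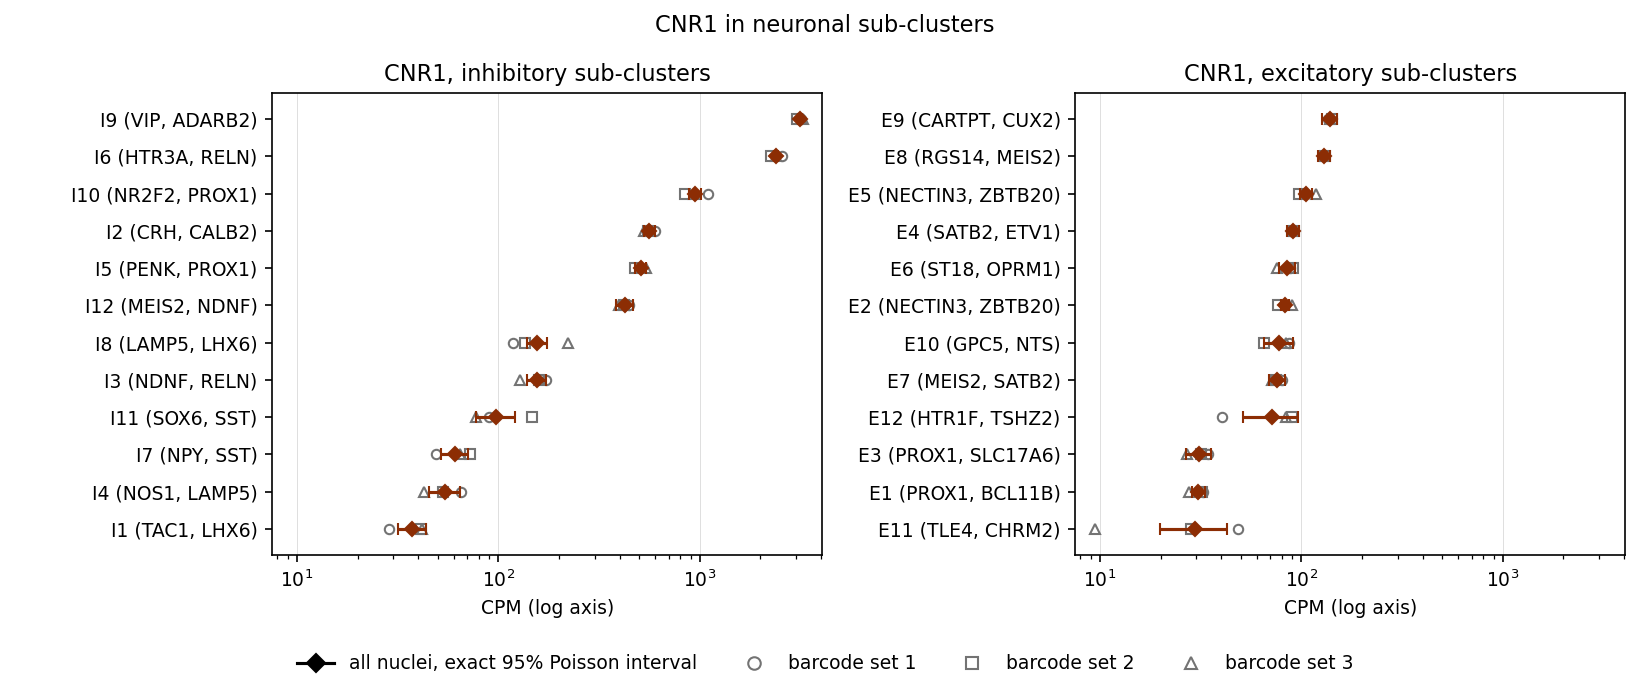
CPM of CNR1 (log axis) in 12 inhibitory (left) and 12 excitatory (right) sub-clusters, each with its leading subtype markers. Filled points are all nuclei with exact 95% Poisson intervals and open symbols the 3 barcode sets. Inhibitory sub-clusters ran from 37.4 to 3146 CPM, an 84.0-fold range, and excitatory ones from 29.8 to 138 CPM, a 4.63-fold range.

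Counts per nucleus also put I9 and I6 first. In I9 the median nucleus had 17 CNR1 UMIs, 1 of 331 nuclei had none, and 75.2% had at least 10. In I6 the median was 13 UMIs, 4.27% of nuclei had none and 62.8% had at least 10. Across all inhibitory neurons the median was 1, the highest count was 96, and 546 nuclei had at least 10. Of the 547 nuclei with at least 10 CNR1 UMIs in the whole pool, 45.5% were in I9 and 45.7% in I6, and 1 was excitatory. In I1 80.1% of nuclei had none. Depth differs between these sub-clusters, with medians of 6316 UMIs in I9, 7232.5 in I6 and 7047 in I1, so I1 was not the shallow one. Thinned to 1000 UMIs, 90.9% of I9, 77.1% of I6, 50.7% of I10 and 3.97% of I1 nuclei had a CNR1 UMI.

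**Figure D3:**
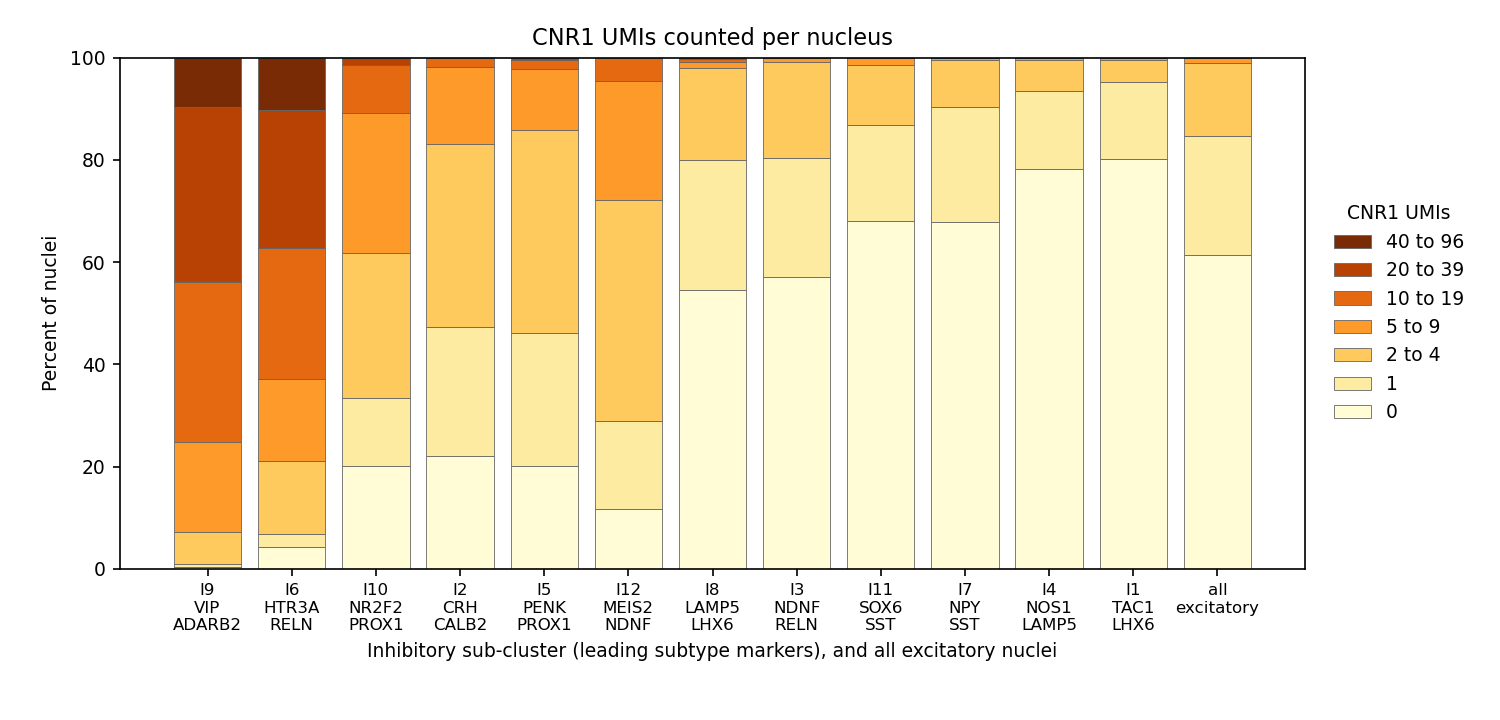
Percent of nuclei (y axis, stacked to 100) by the number of CNR1 UMIs counted (colour), in the 12 inhibitory sub-clusters from the highest to the lowest CPM and in all excitatory nuclei, at full depth. Nuclei with at least 10 UMIs made up 75.2% of I9 and 62.8% of I6 and 0.00943% of excitatory nuclei.

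Of the 6 genes listed as typical of CCK interneurons, CCK and SLC17A8 had their highest inhibitory level in I9, while the others peaked elsewhere or were too sparse to rank. SLC17A8, which encodes VGLUT3, stood at 86.5 CPM in I9 against a mean of 1.98 CPM in the other inhibitory sub-clusters. CCK stood at 221 CPM in I9 against 65.1 CPM, a 3.40-fold difference, and the chemokine gene CXCL14 at 90.3 CPM against 35.6 CPM. NPAS1, a transcription factor gene, was higher in I6 (229.8 CPM against 76.5 CPM), as was CXCL14 (76.3 against 36.9 CPM), while CCK stood at 46.6 CPM there. CXCL14 was at its highest in I10 (108 CPM) and NPAS1 in I5 (273 CPM). TAC3 was at its highest in I10 (16.4 CPM, 15 UMIs), and SNCG had at most 6 UMIs in any inhibitory sub-cluster. CHRM3, a muscarinic receptor that can drive 2-AG synthesis, was 2.89-fold higher in I9 (3870.2 CPM against 1339.7 CPM). CACNA1A, the pore of the P/Q-type calcium channel, stood at 191 CPM in I9 against 957 CPM and at 317 CPM in I6 against 945 CPM. CACNA1B, the pore of the N-type channel through which CB1 acts at many terminals, stood at 1514 CPM in I9 against 977 CPM and at 1158 CPM in I6 against 1009 CPM. Astrocyte markers, as a sign of foreign RNA, summed to 327 CPM in I9 and 781 CPM in I6, against 14469 CPM in astrocytes.

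Excitatory sub-clusters differed less in CNR1. E9 (CARTPT, CUX2) stood highest at 138 CPM (126 to 151), followed by E8 (RGS14, MEIS2) at 129.9 CPM (121 to 139) and E5 (NECTIN3, ZBTB20) at 106 CPM (98.4 to 113). From E4 at 90.6 CPM to E12 at 71.4 CPM no neighbours had intervals apart. E3 and E1, both led by PROX1, stood at 31.0 CPM (26.9 to 35.6) and 30.8 CPM (28.5 to 33.2), and E11 (TLE4, CHRM2) at 29.8 CPM (19.9 to 42.8). The gap between E12 and E3 was the widest in this order, and the set values of E12 (40.5, 90.1 and 84.0 CPM) all lay above those of E3 (34.2, 31.8 and 27.1 CPM). Every excitatory sub-cluster was below I3 and I8 in the pooled value.

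Of the enzymes of 2-AG, the diacylglycerol lipase step of synthesis could be read only from DAGLB, which encodes the related diacylglycerol lipase beta. It stood at 29.5 CPM in inhibitory neurons against 36.9 CPM in excitatory neurons (log2 −0.32, −0.44 to −0.21) and between 17.9 and 37.9 CPM in glia and vessels.

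MGLL, the main enzyme of 2-AG breakdown, was higher in inhibitory than in excitatory neurons and had its highest level in mural cells. It stood at 102 CPM (98.0 to 106) in inhibitory against 36.4 CPM (35.1 to 37.6) in excitatory neurons. The sets gave 98.9, 99.4 and 108 CPM in inhibitory and 37.0, 37.4 and 34.6 CPM in excitatory neurons, with no overlap. The ratio was 2.80-fold, a log2 fold of 1.49 (1.41 to 1.56). Without the cluster highest in PROX1 it was 1.20. Thinned to 1000 UMIs, 9.42% of inhibitory nuclei (8.54 to 10.4%) and 3.06% of excitatory nuclei (2.75 to 3.41%) had a UMI.

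In mural cells, the pericytes and smooth muscle cells of vessels, MGLL stood at 467 CPM (384 to 563), with 556, 364 and 549 CPM in the sets. That was 5.21-fold higher than the mean of the other classes (89.5 CPM), in a comparison where 12% of measured genes were at least 2-fold higher. The value rests on 110 UMIs in 163 nuclei. This cluster also held fibroblast markers, whose 3 detected members summed to 462 CPM there beside 2575 CPM for 6 mural markers, and the part of each cell type in the MGLL level was not tested. Microglia at 210.3 CPM (155 to 279.7) and astrocytes at 202 CPM (193 to 210.4) followed and did not differ beyond their intervals. Endothelial cells stood at 107 CPM (69.0 to 157), with 55.6, 183 and 88.2 CPM in the sets.

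The oligodendrocyte lineage and ependymal cells had the lowest MGLL among glia. Oligodendrocyte precursors stood at 64.4 CPM (48.7 to 83.6), oligodendrocytes at 35.3 CPM (23.3 to 51.4), committed precursors at 25.6 CPM (8.31 to 59.7, 5 UMIs) and ependymal cells at 23.3 CPM (16.3 to 32.2). Astrocytes gave 24.4% of all 8737 MGLL UMIs from 7.71% of all UMIs. Of the thinned nuclei, 34.3% of mural cells (26.4 to 42.9%), 18.6% of microglia (12.1 to 26.9%) and 16.5% of astrocytes (15.5 to 17.5%) had a UMI. In neurons, which should lack them, the 7 astrocyte markers summed to 2.63% of their astrocyte level in inhibitory and 2.57% in excitatory nuclei, and 1.34 to 5.55% in single sub-clusters. Their part in the MGLL levels was not tested.

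Among inhibitory sub-clusters the highest MGLL was in I9, also the highest in CNR1, at 195 CPM (177 to 215). In interval it overlapped astrocytes at 202 CPM (193 to 210.4) and microglia at 210.3 CPM (155 to 279.7). The I9 set values of 191, 189 and 206 CPM lay above those of every other inhibitory sub-cluster. MGLL in I9 was 1.92-fold above the mean of the others (102 CPM), which is under 2-fold. Next stood I3 at 146 CPM, I4 at 145 CPM, I11 at 142 CPM, I12 at 134 CPM, I8 at 120.4 CPM and I10 at 118 CPM, with no neighbours apart. I1, I7 and I2 lay between 67.3 and 77.3 CPM. I6, second in CNR1, stood at 58.0 CPM (49.7 to 67.2), and I5 was lowest at 39.8 CPM (31.4 to 49.9). CNR1 and MGLL were thus high together in I9 and not in I6, and across the 12 sub-clusters their log2 levels had r = −0.04.

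Excitatory sub-clusters spanned a 12.05-fold range in MGLL. E8 (RGS14, MEIS2; 543 nuclei) stood at 92.9 CPM (85.7 to 100.4), with 95.3, 91.0 and 92.5 CPM in the sets, all above every other excitatory sub-cluster. It was 2.67-fold higher than the mean of the other 11 (34.8 CPM), where 2.77% of measured genes kept out of the clustering were at least 2-fold higher. ABHD12, which encodes another hydrolase of 2-AG, was also higher in E8 (225 CPM against 109 CPM). E6 (ST18, OPRM1) at 62.8 CPM, E12, E11 and E5 at 57.0 CPM formed the next level, and E2 (41.5 CPM) and E4 (28.1 CPM) lay lower. E7, E1 and E3 stood between 18.1 and 20.9 CPM. E9 (CARTPT, CUX2), the highest excitatory sub-cluster in CNR1, stood at 10.9 CPM (7.81 to 14.9), and E10 (GPC5, NTS) at 7.71 CPM (4.21 to 12.9) on 14 UMIs.

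FAAH had the opposite order between neuron classes. It was lower in inhibitory neurons, at 41.6 CPM (39.1 to 44.2) against 104 CPM (102 to 106) in excitatory neurons. The sets gave 38.3, 41.8 and 45.04 CPM in inhibitory and 102, 104 and 106 CPM in excitatory neurons, with no overlap. The log2 fold was −1.32 (−1.42 to −1.23), and 8.65% of measured genes were at least 2-fold lower in inhibitory neurons. Excitatory neurons gave 83.2% of all 11552 FAAH UMIs from 67.5% of all UMIs. Against the mean of the other classes (46.1 CPM) FAAH was 2.26-fold higher in excitatory neurons, where 8.15% of measured genes were. The log2 folds in the sets were 0.92, 1.51 and 1.12, so set 1 lay under 2-fold. Thinned to 1000 UMIs, 3.86% of inhibitory nuclei (3.29 to 4.49%) and 9.86% of excitatory nuclei (9.30 to 10.4%) had a UMI.

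FAAH was rather even across inhibitory sub-clusters and less so across excitatory ones, which spanned a 2.69-fold range. The 12 inhibitory sub-clusters lay between 33.8 CPM (I8) and 52.2 CPM (I2), a 1.54-fold range in which no neighbours were apart, and I9 stood at 40.5 CPM and I6 at 49.3 CPM. Among excitatory sub-clusters E2 (NECTIN3, ZBTB20; 1903 nuclei) stood apart at 141 CPM (136 to 146), with 139, 143 and 140.3 CPM in the sets. E3, E6, E5, E4 and E7 lay between 98.6 and 112 CPM. E12, E1 and E9 lay between 84.2 and 86.8 CPM. E8 at 70.2 CPM (64.0 to 76.8), E10 at 62.2 CPM (51.3 to 74.8) and E11 at 52.4 CPM (39.0 to 68.9) were at the low end. At full depth no sub-cluster was 2-fold away from the mean of the others. The PROX1-led E1 and E3, at the low end in CNR1 and MGLL, stood at 86.5 CPM and 112 CPM in FAAH, where E3 was next below E2.

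In glia and vessels FAAH ranged up to 78.5 CPM (59.9 to 101) in oligodendrocytes, followed by committed precursors at 66.6 CPM (35.4 to 114, 13 UMIs) and microglia at 53.7 CPM (27.7 to 93.8, 12 UMIs). Astrocytes stood at 45.5 CPM (41.5 to 49.8). Endothelial cells had 2 UMIs, at 8.53 CPM (1.03 to 30.8), lower than the mean of the other classes (56.7 CPM), and 22% of measured genes were at least 2-fold lower there. After thinning to 1000 UMIs none of 101 endothelial nuclei had a FAAH UMI, which allows a share of up to 3.59%, so the thinned counts cannot show whether this difference holds. Excitatory RNA was present in these nuclei. SLC17A7, a vesicular glutamate transporter gene that glia should lack, stood at 22.8 to 66.4% of its excitatory level in glia and vessels, and FAAH at 8.20 to 75.4%. In oligodendrocytes these values were 40.7% for SLC17A7 and 75.4% for FAAH. The share depended on the gene chosen. SV2B, also used to name excitatory neurons, stood at 17.6 to 29.3% of its excitatory level in glia and vessels. In oligodendrocytes the neuronal genes SYT1, SV2B and RBFOX3 stood at 41.5%, 20.2% and 5.15% of their excitatory levels. The part of free RNA in the glial FAAH counts was not tested.

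**Figure D4:**
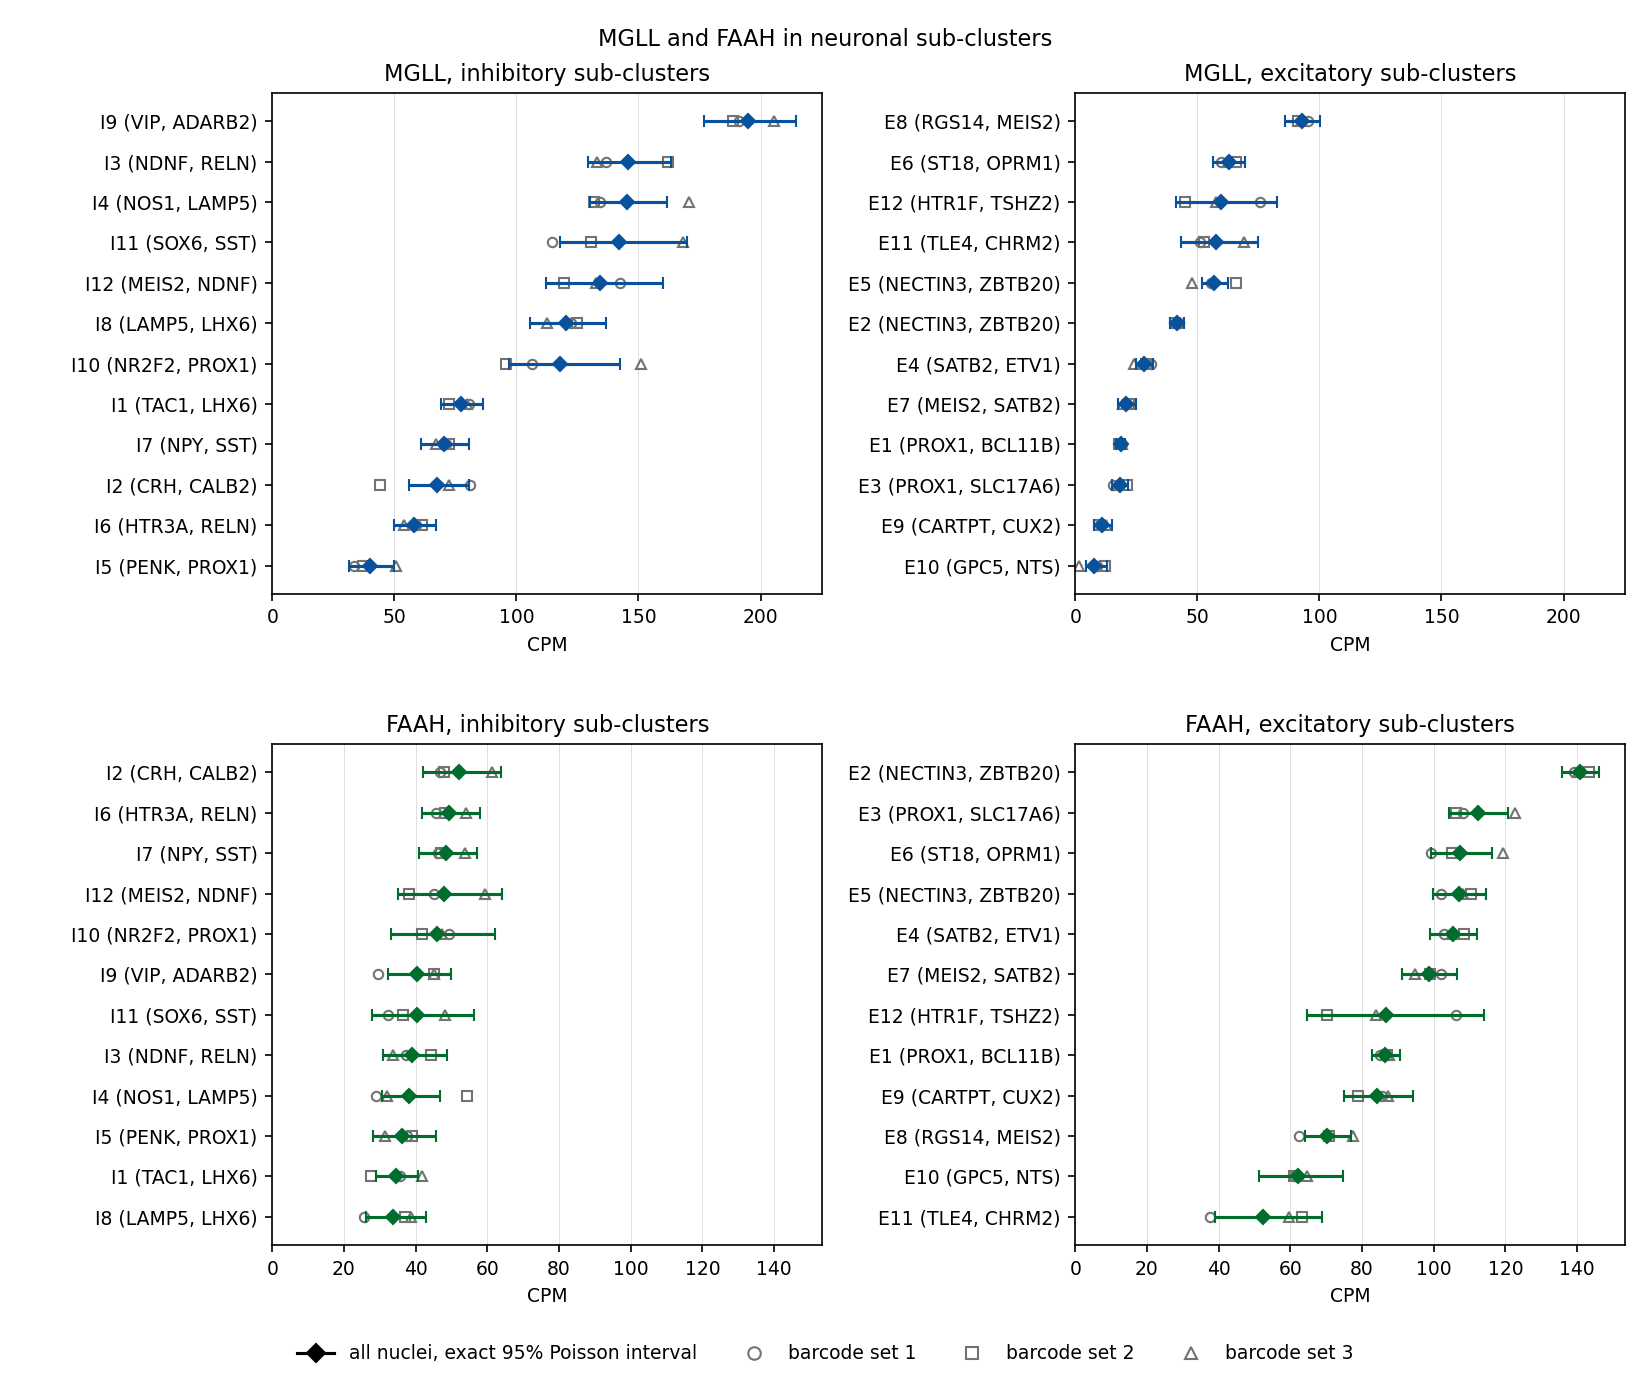
CPM (linear axes) of MGLL (top) and FAAH (bottom) in 12 inhibitory (left) and 12 excitatory (right) sub-clusters. Filled points are all nuclei with exact 95% Poisson intervals and open symbols the 3 barcode sets. MGLL was highest in I9 (195 CPM) and E8 (92.9 CPM), and FAAH in E2 (141 CPM), while FAAH in inhibitory sub-clusters stayed between 33.8 and 52.2 CPM.

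The other genes of the pathway moved in both directions between the neuron classes. Of 57 genes in 5 lists 51 were found and 47 measured, and in inhibitory relative to excitatory neurons 5 of them were higher, 7 were lower and 35 lay within 2-fold. Over all 14872 measured genes 8.49% were higher, 8.65% were lower and 12323 lay within 2-fold. The median log2 fold was 0.03 in the lists and 0.10 over all genes. The lists were chosen with results of these data known, so their counts are a description.

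In the list of 2-AG synthesis and breakdown, 1 of 7 measured genes was higher and 3 were lower, beside 8.49% and 8.65% of all measured genes, and the median was −0.53. PLCB4, a phospholipase C that makes the precursor of 2-AG, stood at 326 CPM in inhibitory against 26.1 CPM in excitatory neurons (log2 3.64). ABHD6, another 2-AG hydrolase, stood at 70.0 CPM against 152 CPM (log2 −1.12). The phospholipase genes PLCB3 (log2 −1.56) and PLCB2 (−1.01, on 12 and 90 UMIs) were the others that were lower. Of 10 measured genes of N-acylethanolamine synthesis, carriage and breakdown, the family of lipids that includes anandamide, 9 lay within 2-fold and the median was 0.22. ALOX15, which encodes a lipoxygenase, was the 1 that was lower (log2 −1.94).

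Among 8 measured other receptors and CB1-binding proteins 1 was higher and 1 was lower, beside 8.49% and 8.65% of all measured genes. The median was −0.13. The genes that passed 2-fold both encode nuclear receptors. PPARA stood at 31.3 CPM in inhibitory against 12.9 CPM in excitatory neurons (log2 1.28), and PPARG at 6.52 CPM against 44.1 CPM (log2 −2.76). CNR2, the second cannabinoid receptor gene, had 30 UMIs in inhibitory and 104 in excitatory neurons (1.21 and 1.13 CPM). CNRIP1 and SGIP1, which encode proteins that bind CB1, lay at −0.18 and −0.07.

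Of 13 measured genes of CB1 signal transduction, 2 were higher and 1 was lower, counts near the 8.49% and 8.65% of all measured genes, with a median of 0.12. The adenylyl cyclase gene ADCY8 stood at 246 CPM in inhibitory against 73.5 CPM in excitatory neurons (log2 1.75), and GNAI2, an inhibitory G protein subunit, at 46.4 CPM against 22.1 CPM (log2 1.07). KCNJ6, a potassium channel opened by G proteins, stood at 390.2 CPM against 805 CPM (log2 −1.05). Of 9 measured receptors and G proteins that act upstream of DAGLA, the serotonin receptor gene HTR2C (184 CPM against 16.4 CPM, log2 3.49) was higher and the scaffold gene HOMER1 (173 CPM against 362 CPM, log2 −1.06) was lower. The glutamate receptor GRM5, the classic trigger of 2-AG release, stood at 1578 CPM against 1549.5 CPM (log2 0.03), and the median of this list was 0.03.

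The 5 measured CCK interneuron genes were all higher in inhibitory neurons, with a median log2 fold of 3.24. These were SLC17A8 (log2 3.75), CXCL14 (3.56), TAC3 (3.24, on 66 and 26 UMIs), NPAS1 (2.92) and CCK (1.92). Over all measured genes 8.49% were higher and the median was 0.10. The list was made of interneuron genes, so its count does not bear on the endocannabinoid genes. CCK itself also stood between 35.8 and 143 CPM in glia and vessels, beside 76.6 CPM in inhibitory neurons. The pooled values were 85.0 CPM in oligodendrocytes (435 nuclei), 110.3 CPM in mural cells (163), 124 CPM in endothelial cells (112) and 143 CPM in microglia (180). None of these was 2-fold away from the inhibitory level, and their counting error is not given here. The part of free RNA in them was not tested.

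**Figure D5:**
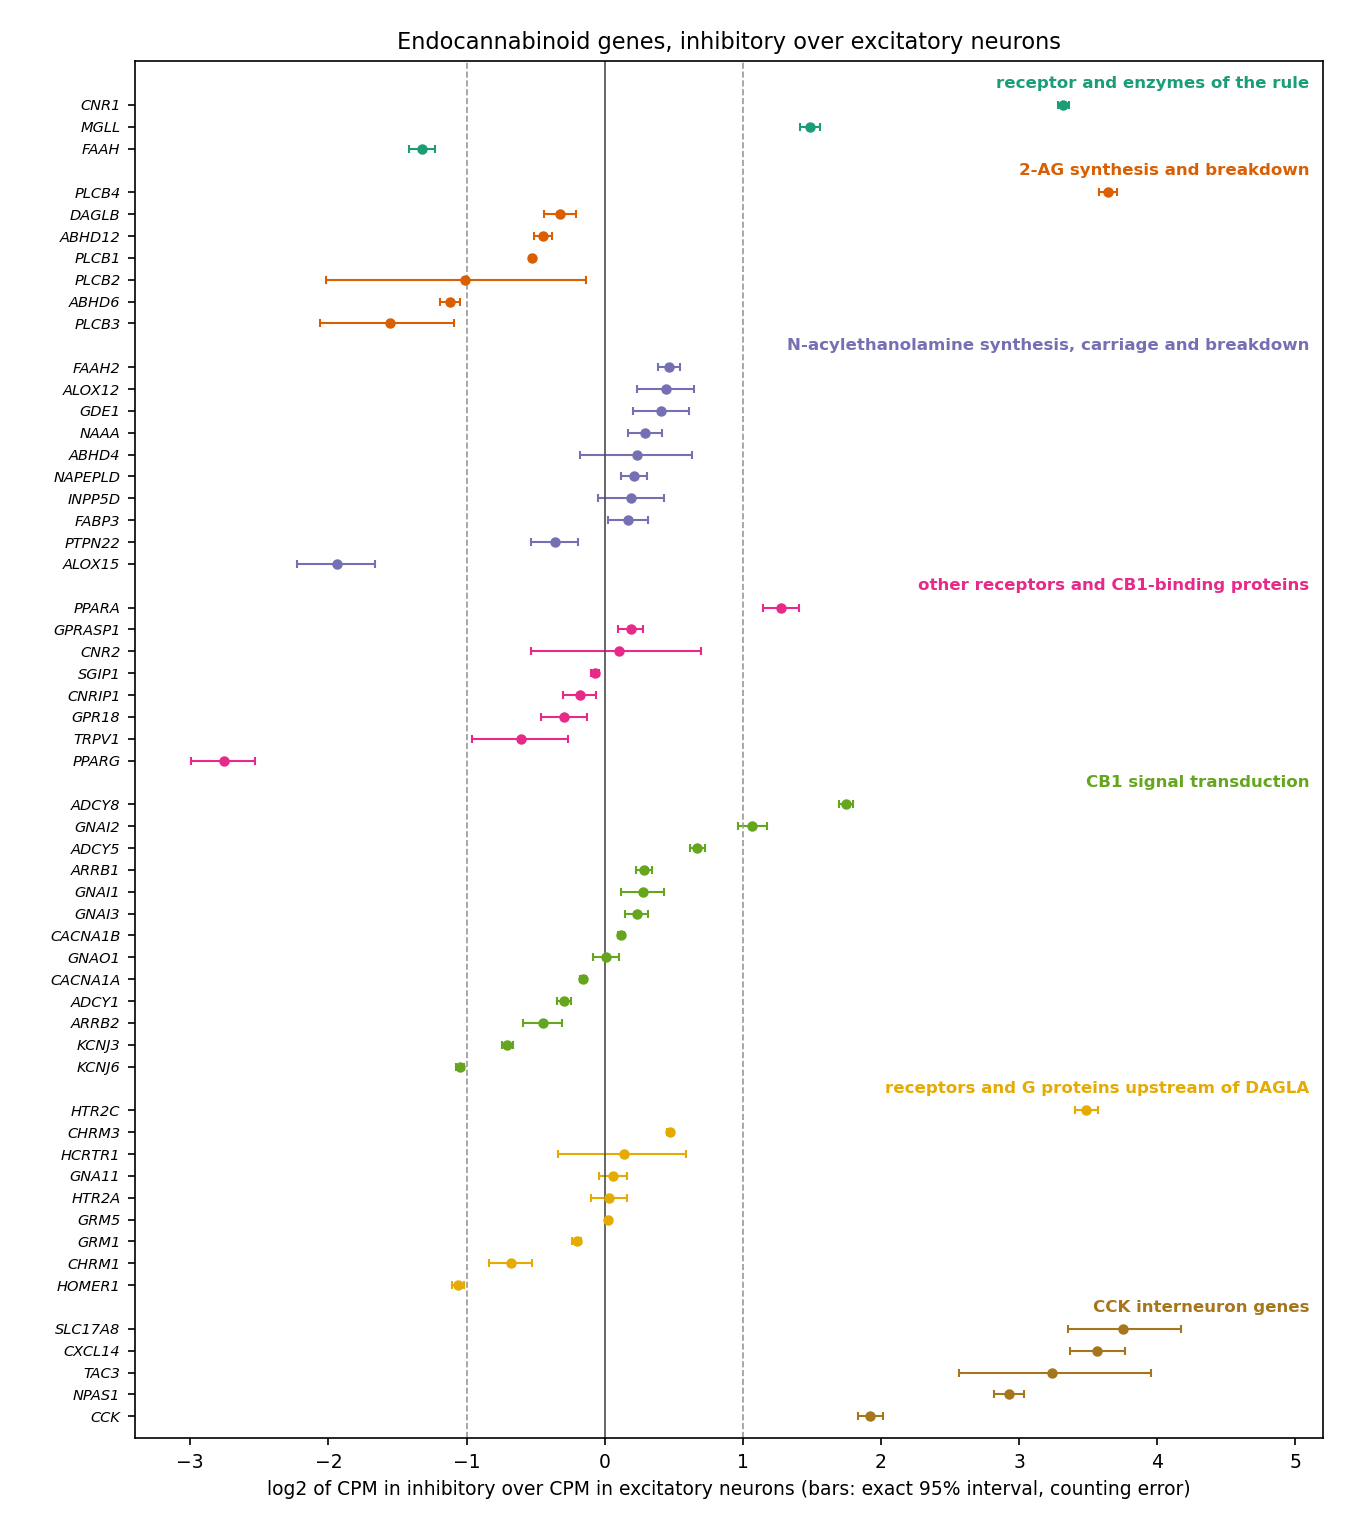
Log2 of CPM in inhibitory over CPM in excitatory neurons (x axis) for the measured genes of each list (y axis, coloured by list), with exact 95% intervals for counting error. Dashed lines mark 2-fold. CNR1 (3.32), PLCB4 (3.64) and HTR2C (3.49) lie far to the right, PPARG (−2.76) farthest to the left, and 35 of the 47 pathway genes lie between the dashed lines.

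The genes whose levels ran most like those of the 3 genes were sought among 6176 genes kept out of the clustering with at least 200 UMIs, over the 32 types (24 neuronal sub-clusters and 8 other classes), on log2(CPM + 5). For CNR1 they were SLC18A2, a vesicular monoamine transporter (r = 0.79), CCNH (0.77), NPAS1 (0.77), PDE1C (0.72) and SCN7A (0.72). The highest SLC18A2 level was in I12, at 114 CPM. I6 had 70.6 CPM of it, I9 had 63.3 CPM, and every other type had 24.6 CPM or less. Across the inhibitory sub-clusters alone DDX27 (0.90), SLC1A1 (0.89), CLMP (0.88), SAMD4A (0.88) and MEI4 (0.88) came first. CLMP, which encodes an adhesion molecule, stood at 543 CPM in I9 and 505 CPM in I6. Across the 12 excitatory sub-clusters CLMP had the highest correlation with CNR1 (r = 0.93), with 306 CPM in E9.

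For MGLL the closest genes were RBMS3 (r = 0.71), EIF6 (0.70), ABCB10 (0.70), CSNK1E (0.69) and PPM1A (0.69), and RBMS3, which encodes an RNA-binding protein, was at its highest in mural cells (3305 CPM). For FAAH they were COQ8A (0.81), MATK (0.81), CNKSR2 (0.81), DPYD (0.78) and CDC40 (0.77). MATK stood at 8.70 CPM in inhibitory against 24.7 CPM in excitatory neurons. Between the genes themselves, MGLL and FAAH had r = −0.47 over the 32 types, CNR1 and MGLL 0.25, and CNR1 and FAAH −0.15. These correlations are descriptions over types that share libraries, and the smallest classes rest on few counts.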

How the data were processed

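The authors deposited raw UMI counts per gene and nucleus, pooled from 12 libraries; per the submitters' processing notes fastp, Cell Ranger 3.0.0 and GRCh38 were used. Many rows carry macaque identifiers, so the build is not settled and no coordinates or sequences are printed. The members and lists were chosen with earlier results of these data known. No nucleus exceeds 4999 detected genes, and the filter behind this is not given in the sources used here.

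In each barcode set the nuclei with the highest Scrublet scores were removed as presumed doublets, at a rate of 0.8% for every 1000 nuclei in the set. Clustering (scanpy 1.11.5, 2000 variable genes, 30 components, 15 neighbours, Leiden resolution 0.5) used 9883 genes and kept out the lists and a hashed share of the others. Clusters were named from 118 marker genes, at thresholds set after the data were seen: GAD1 plus GAD2 over 300 CPM for inhibitory neurons, SLC17A7 over 75, SV2B over 45 and RBFOX3 over 600 CPM for excitatory neurons, and a mean log2 marker ratio over 3 for other classes (2 for oligodendrocyte precursors). Small clusters whose median Scrublet score exceeded 0.1 were left without a name.

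Counts were summed per type and divided by the type's total. A gene was measured with at least 50 UMIs on either side and 10 on each side at the higher level; folds used a floor of 3 counts for 0. With 1 pool, no test was run across samples. Genes named are those of the rule, the 5 most like each by Pearson r, and from each list up to 4 at least 2-fold apart between neuron classes; other genes were named after their values were seen. Totals were 52231758, 51570932 and 47724193 UMIs in the barcode sets. The 2-fold calls, between a pair of groups and of a class against the mean of the others, were tested on simulated Poisson counts with known folds. Doublet removal, clustering, naming, thinning and correlation were not tested in this way.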

Additional observations from a re-analysis of the deposited data

How the results depend on the processing

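The directions of CNR1, MGLL and FAAH between inhibitory and excitatory neurons, and their side of the 2-fold line, held under every alternative run. Leaving out each barcode set in turn gave log2 folds of 3.28 to 3.35 for CNR1, 1.41 to 1.53 for MGLL and −1.37 to −1.28 for FAAH. For CNR1 the value was 3.22 with presumed doublets kept, 2.98 without the excitatory cluster highest in PROX1 and 3.38 as the mean of CPM per nucleus. For MGLL it was 1.70 thinned to 1000 UMIs, 1.20 without that cluster and 1.60 as the mean of CPM per nucleus. The causes were not tested. Leiden resolution 1.0 and clustering on all genes but the lists moved these within their intervals. Pathway genes past 2-fold numbered 5 or 6 higher and 5 to 7 lower.

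No class or sub-cluster value changed sign in a called result. Among classes, FAAH in endothelial cells (log2 −2.73, on 2 UMIs) had no UMI left after thinning, where the floor of 3 counts gives −0.96 as a bound only, and without set 1 CNR1 in microglia came to −1.46 (against −0.62). Per alternative, at most 2 of 30 class values lost the 2-fold line and at most 2 gained it. Sub-cluster values were less stable: thinning moved 36 of 72, and 5 of the 72 gained and 1 lost the 2-fold line, keeping doublets lost 1, and leaving out 1 barcode set gained up to 3. Among sub-clusters, CNR1 in I6 and I9 and MGLL in E8 kept their calls in every alternative run for them, while MGLL in I9 passed 2-fold after thinning (1.17) and in I6 it came to −1.27 after thinning (against −0.98). CNR1 in E11 was −2.21 without set 1 (against −1.49). MGLL in E10 (−2.46) had no UMI left after thinning, where the floor gives a bound of −1.02. FAAH in E11 was −1.44 after thinning (against −0.88), with a UMI in 3.74% of 107 nuclei. With log2(CPM + 1) instead of 5, 3 of the 5 genes most like CNR1 and 3 of the 5 most like FAAH over all types were shared, and 4 of 5 for MGLL. No paired analysis was possible because no label ties nuclei to a library or animal. Depth limits the small classes most: 3 counts amount to 15.4 CPM in committed precursors and 0.0325 CPM in excitatory neurons.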

Other observations

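The following genes and clusters were chosen after their values were seen. NAPEPLD, which encodes an enzyme of anandamide synthesis, had its highest levels in committed oligodendrocyte precursors (74 nuclei) and oligodendrocytes. It stood at 399 CPM in committed precursors, 322 CPM in oligodendrocytes, 136 CPM in oligodendrocyte precursors and 139.5 CPM in ependymal cells, against 46.8 CPM in inhibitory and 40.3 CPM in excitatory neurons. ABHD6, a 2-AG hydrolase, stood at 160 CPM in oligodendrocytes, close to its 152 CPM in excitatory neurons, and at 70.0 CPM in inhibitory neurons. PPARA stood at 163 CPM in astrocytes.

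Unnamed clusters also held CNR1. A cluster of 30 nuclei with RELN at 21604 CPM stood at 153 CPM (98.3 to 228) for CNR1, on 24 UMIs. A cluster of 515 nuclei with PROX1 at 329.6 CPM stood at 37.7 CPM (29.7 to 47.3) for CNR1 and 54.3 CPM (44.6 to 65.6) for FAAH. The shallowest unnamed cluster (510 nuclei, median 549 UMIs) stood at 207 CPM (160 to 263) for CNR1.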
